A study of Mus musculus with 30 samples.

Results

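The genes described here are 10 immediate early genes of the mouse left ventricle, *Fos*, *Fosb*, *Jun*, *Junb*, *Atf3*, *Egr1*, *Ier2*, *Ier5*, *Ier3* and *Btg2*. They were named as a list and were chosen by measured values, since the lower *Jun* and *Ier5* counts of mice given Aβ42 in these data led to the list. All 10 were found among the 49671 genes counted in the peptide study and the 55263 obtained for the antibody study. In each study 9 of the 10 averaged 10 or more counts over the hearts and were tested, the exception being *Fosb* in both. Treatment differences and correlations of the 10 genes are therefore given as a description.

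Immediate early genes are transcribed within minutes of a stimulus from transcription factors that are already present in the cell, with no need for new protein. Growth factors, stretch, hormones and cellular stress induce them in the heart through MAP kinases acting on serum response factor and its partners and on CREB. Fos and Jun family proteins pair through leucine zippers to form AP-1, Egr1 is a zinc finger transcription factor, and most of these transcripts are short-lived.

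RNA from the left ventricle of 30 male wild type C57BL6J mice was sequenced in a pair of studies, 1 heart per mouse. In the peptide study, mice received Aβ42, the recombinant human 42-residue amyloid beta peptide, or ScrAβ42, its scrambled control, by daily intraperitoneal injection for 4 weeks from 12 weeks of age (7 hearts per group). The labels give the dose as 1 mg per day, whereas the study's methods give it in µg. Those methods also give the age at the first peptide injection as a range that ends at 12 weeks. In the antibody study, mice received the Aβ neutralising antibody 3D6 or a control antibody by weekly injection (8 hearts per group). The study's methods give their age at the start as 12 weeks and describe injections over months, so these mice were older when killed. The series' design text has these mice given Aβ42 too, whereas the study's methods describe a high-fat diet with the antibodies and no peptide, and this was not resolved. The labels describe 2 peptide cohorts, one killed directly after a glucose tolerance test and another killed 2 days after echocardiography under isoflurane, without saying which gave these hearts, whereas the study's text points to the scheme of the cohort with the tolerance tests. Mice are named as in the labels, from ScrAbeta42_3441 to ScrAbeta42_3449 and from Abeta42_3451 to Abeta42_3460. The numbers of both groups do not overlap, so anything that followed the mouse number cannot be told apart from the peptide. In the antibody study the numbers of both groups were interleaved, with 1 heart of each group in each of 8 pairs of consecutive numbers.

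Hearts of the peptide study had 4478991 to 6015767 counts, and those of the antibody study 6371811 to 8278366. Expression is given as CPM, the count scaled to a fixed library total with TMM factors. The 8 cardiomyocyte markers were present throughout, with a summed level of at least 42400 CPM. Atrial markers (*Sln*, *Myl7*, *Myl4*, *Bmp10*, *Mybphl*) varied more between hearts of the peptide study than any other marker list, from 3.81 to 3652 CPM in sum with ScrAβ42 and from 12.3 to 8387 CPM with Aβ42, and 5 of 5 had a positive log2 fold change with Aβ42 (1 at an unadjusted p under 0.05, median 2.31). Adipose markers were positive in 4 of 4 tested (3 at an unadjusted p under 0.05, median 2.49, 27.6 to 48.5 CPM in sum with ScrAβ42 and 28.3 to 495 CPM with Aβ42) and mesothelial markers in 5 of 5 (median 0.79), whereas blood markers were negative in 5 of 5 (median -1.37) and skeletal muscle markers in 4 of 4 tested (median -0.77), none of these last 3 lists with a gene at that p. With 3D6, markers were negative in 4 of 4 endothelial (1 at that p, median -0.16), 4 of 4 tested atrial (median -0.97), 2 of 2 tested mesothelial (1 at that p, median -0.56), 5 of 5 blood (median -0.09), 4 of 4 fibroblast (median -0.09) and 3 of 4 macrophage genes (median -0.15), and positive in 3 of 3 tested platelet genes (median 0.34). The part of these markers in the members' differences was not tested beyond the fits given below. Heart Abeta42_3457 had the lowest share of mitochondrial counts (12.9%) and the largest TMM factor (1.21) of that study. No gene passed an adjusted p of 0.05 in edgeR in either study (0% of 11985 genes with Aβ42, 0% of 12146 genes with 3D6). At an unadjusted p under 0.05, 3.6% of all genes were higher and 2.91% lower with Aβ42, and 1.29% were higher and 2.36% lower with 3D6. The corresponding DESeq2 calls at an adjusted p of 0.05 numbered 12 genes, or 0.1%, with Aβ42 and 0% with 3D6.

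Promoter sequences from RefSeq (GRCm38.p6) were found for 8 of the 10 genes. Those of *Jun* and *Ier5*, which were lower together with Aβ42, and of *Fos*, which was not, are shown as the 250 bases before the transcription start. The *Jun* window lies at chr4:95052223-95052472 on the minus strand, that of *Ier5* at chr1:155099637-155099886 on the minus strand and that of *Fos* at chr12:85473640-85473889 on the plus strand. Each is written 5′ to 3′ in the direction of the gene, and capitals mark every match to the motifs searched.
Jun: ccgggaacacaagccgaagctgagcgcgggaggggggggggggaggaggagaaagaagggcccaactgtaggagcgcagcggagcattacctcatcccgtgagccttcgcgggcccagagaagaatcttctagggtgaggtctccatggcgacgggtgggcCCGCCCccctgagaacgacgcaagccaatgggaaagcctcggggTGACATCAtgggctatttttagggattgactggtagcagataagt
Ier5: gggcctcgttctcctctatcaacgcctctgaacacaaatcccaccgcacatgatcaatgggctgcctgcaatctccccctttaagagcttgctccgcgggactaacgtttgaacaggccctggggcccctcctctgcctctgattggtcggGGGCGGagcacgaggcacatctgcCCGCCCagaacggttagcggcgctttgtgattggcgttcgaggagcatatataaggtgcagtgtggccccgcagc
Fos: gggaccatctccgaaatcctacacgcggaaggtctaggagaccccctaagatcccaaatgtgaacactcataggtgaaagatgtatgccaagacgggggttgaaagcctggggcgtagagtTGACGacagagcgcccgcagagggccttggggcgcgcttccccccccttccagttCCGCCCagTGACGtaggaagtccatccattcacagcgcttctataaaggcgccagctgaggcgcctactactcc
The motifs, searched on both strands, were the CRE (TGACGTCA), its shorter core TGACG, the AP-1 sites TGACTCA and TGAGTCA, the GC box GGGCGG and the CArG box of serum response factor. The AP-1-like site TGACATCA, known from the *Jun* promoter, was added after the sequence had been read. The CRE core is contained in the CRE, so that every CRE counts under both. The *Jun* window holds TGACATCA at position -45 from the start and 1 GC box, and the *Ier5* window holds 2 GC boxes and none of the other motifs. In the *Fos* window there are 2 CRE cores, at -129 and -66, and 1 GC box. Of 32851 mouse promoter windows of this length, 2.93% hold TGACATCA, 17.8% a CRE core and 32.7% a GC box. *Btg2* was the only one of the 8 with a complete CRE, at -166, which 1.55% of windows hold. CRE cores were also present in *Fosb*, *Junb* and *Atf3*, and GC boxes in *Fosb* (3), *Atf3* (5), *Ier3* (1) and *Btg2* (3). None of the 8 windows holds a CArG box (1.47% of all windows) or an AP-1 site (4.46%), which says only that these letters are not in this stretch.

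*Jun*, the principal partner of Fos proteins in AP-1, lies on the minus strand of chromosome 4 from 95049034 to 95052222 in GRCm38 as a single exon of 3189 bases. With ScrAβ42 its lowest, median and highest values were 55.9, 61.8 and 74.3 CPM, and with Aβ42 they were 39.0, 43.5 and 53.8 CPM. Every Aβ42 heart thus lay below every ScrAβ42 heart. Group means were 45.4 ± 5.74 CPM (SD, n = 7) with Aβ42 and 63.4 ± 5.91 CPM (SD, n = 7) with ScrAβ42. This gave a log2 fold change of -0.48 (standard error 0.083), with an adjusted p of 0.119 in edgeR and 0.000436 in DESeq2. *Jun* was 1 of 4 genes, or 0.0334% of those tested, in which all Aβ42 hearts lay below all ScrAβ42 hearts, beside *Slc38a2*, *Plec* and *Zfp651*. In the other direction there were 7 such genes (0.0584%), none of them on the list. Over all leave-one-out fits the log2 fold change lay between -0.53 and -0.44, and the edgeR adjusted p of *Jun* between 0.0433 and 0.424. The lowest p was that without heart Abeta42_3452, whose *Jun* level was the highest of its group.

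With 3D6 the same gene showed no such separation. *Jun* values were 36.2, 47.0 and 58.7 CPM (lowest, median and highest) with the control antibody and 32.9, 42.8 and 56.9 CPM with 3D6. Both groups covered nearly the same range. Its log2 fold change with 3D6 was -0.06 (standard error 0.12, adjusted p = 0.949 in edgeR). No gene of the antibody study had all 3D6 hearts below, or all above, the control hearts (0% in each direction).

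*Ier5*, an immediate early response gene whose product binds protein phosphatase 2A and promotes the activity of heat shock factor 1, is likewise a single exon, on the minus strand of chromosome 1 from 155096361 to 155099636. Its lowest, median and highest values were 43.3, 52.5 and 71.8 CPM with ScrAβ42 and 25.5, 30.6 and 48.9 CPM with Aβ42. The groups overlapped through 1 heart, Abeta42_3452 with 48.9 CPM, and the other 6 Aβ42 hearts were below every ScrAβ42 heart. Means were 32.8 ± 8.17 CPM (SD, n = 7) with Aβ42 and 53.2 ± 10.6 CPM (SD, n = 7) with ScrAβ42. This gave a log2 fold change of -0.70 (standard error 0.15), with an adjusted p of 0.429 in edgeR and 0.0186 in DESeq2. Leaving out Abeta42_3452 gave -0.82 and an edgeR adjusted p of 0.0516. That was the lowest adjusted p of the leave-one-out fits, and the highest was 0.887.

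The *Ier5* groups of the antibody study overlapped over most of their range. Its values were 16.4, 20.6 and 23.8 CPM with the control antibody and 13.0, 20.2 and 22.1 CPM with 3D6. Its log2 fold change was -0.08 (standard error 0.12, adjusted p = 0.944 in edgeR). *Jun* and *Ier5* were thus the 2 members with an unadjusted p under 0.05 in the peptide study, both lower, and neither was among the 3 members under that value in the antibody study. The difference between the studies was not tested, since the tables were made separately.

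**Figure D1:**
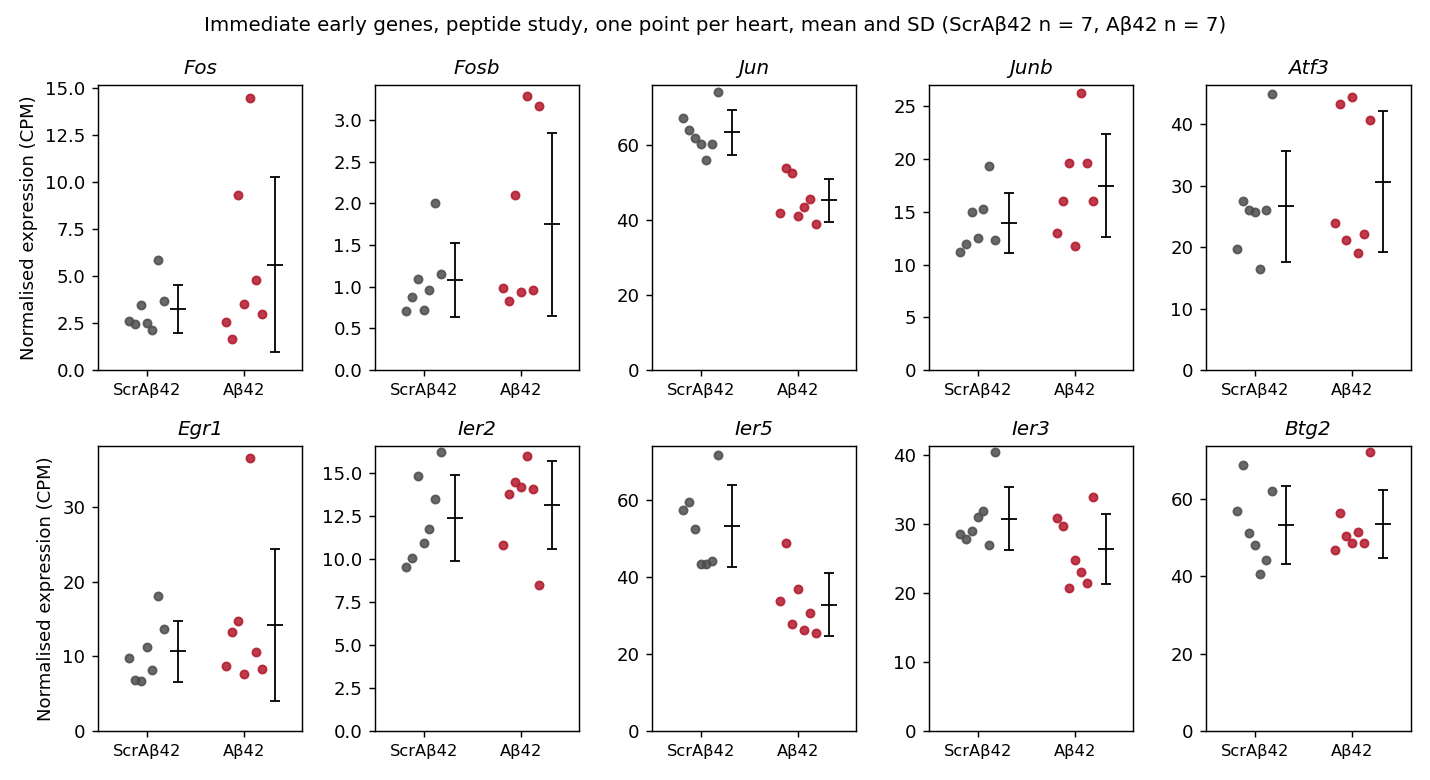
CPM of each immediate early gene in each heart of the peptide study (y axis, from 0), with ScrAβ42 hearts in grey and Aβ42 hearts in red. The horizontal mark and bar to the right of each group are the mean and SD of 7 hearts. In the *Jun* panel the groups do not overlap (55.9 to 74.3 CPM against 39.0 to 53.8 CPM), and in the *Ier5* panel 1 Aβ42 heart reaches 48.9 CPM.

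*Fos*, which codes for the c-Fos subunit of AP-1, lies on chromosome 12 from 85473890 to 85477273 on the plus strand. Its level was low. With ScrAβ42 the lowest, median and highest values were 2.12, 2.62 and 5.84 CPM, and with Aβ42 they were 1.65, 3.55 and 14.5 CPM. Hearts Abeta42_3457 (14.5 CPM) and Abeta42_3455 (9.33 CPM) stood above all others with Aβ42, and 1 Aβ42 heart lay below every ScrAβ42 heart. Its log2 fold change was 0.81 (standard error 0.43, adjusted p = 0.775 in edgeR), and it was -0.13 once the atrial marker score entered the fit as a covariate. With the mitochondrial share of counts as the covariate it was 0.74 (standard error 0.29, unadjusted p = 0.0228 and adjusted p = 0.389 in edgeR). When all 5 hearts with an atrial marker score above 0.5 were left out (4 given Aβ42 and 1 given ScrAβ42), it was -0.03. Without heart Abeta42_3457 alone it was 0.35.

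With 3D6, *Fos* was the member with the largest positive log2 fold change. Its values were 0.686, 1.97 and 2.24 CPM with the control antibody and 0.602, 2.94 and 5.80 CPM with 3D6. Of the 8 hearts given 3D6, 5 exceeded every control heart and 1 lay below all of them. The log2 fold change of 0.86 (standard error 0.35) had an unadjusted p under 0.05 and an adjusted p of 0.944 in edgeR. The total over the 16 hearts was 262 estimated counts, of which 92.6% were on the full-length coding transcript *Fos*-201.

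*Fosb*, whose product forms AP-1 dimers like c-Fos, was close to the limit of detection. It had between 3 and 24 counts per heart in the peptide study, from 0.714 to 2.00 CPM with ScrAβ42 and from 0.825 to 3.29 CPM with Aβ42. Its counts in the antibody study summed to 41 over the 16 hearts. *Fosb* was not tested in either study.

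*Junb*, a Jun family member with weaker transactivation than c-Jun, ran from 11.2 to 19.4 CPM with ScrAβ42 (median 12.5) and from 11.8 to 26.3 CPM with Aβ42 (median 16.1). The Aβ42 group was above the ScrAβ42 median in 6 of 7 hearts, with full overlap at the low end. Its log2 fold change was 0.33 (standard error 0.17, adjusted p = 0.775 in edgeR) and was 0.03 once the atrial marker score entered the fit. With the mitochondrial share as the covariate it was 0.34 (standard error 0.10, unadjusted p = 0.00539 and adjusted p = 0.272 in edgeR), and without heart Abeta42_3457 it was 0.19. *Junb* and *Jun* thus had opposite signs within the AP-1 group. With 3D6, *Junb* ran from 15.5 to 32.5 CPM (median 23.99) against 19.7 to 31.3 CPM (median 23.2) with the control antibody, and the log2 fold change was -0.07 (standard error 0.15).

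*Atf3*, a stress-induced factor that binds CRE-like sites and often represses them, had split values in the Aβ42 group. The lowest, median and highest values were 16.4, 26.0 and 45.0 CPM with ScrAβ42 and 19.03, 24.01 and 44.4 CPM with Aβ42. The groups covered the same range, and the log2 fold change was 0.20 (standard error 0.24, adjusted p = 0.926 in edgeR). It was 0.40 when the fit held the atrial score and 0.67 without the 5 hearts of high atrial score (unadjusted p = 0.00751, adjusted p = 0.697 in edgeR), and leaving out Abeta42_3456 gave 0.08. The fit without those hearts was chosen after seeing the data and kept 3 Aβ42 hearts. These were the hearts with *Atf3* at 40.75 CPM or more, and the 4 Aβ42 hearts left out were at 24.01 CPM or less. The *Atf3* level in the antibody study was much lower, at 1.51 to 5.57 CPM with the control antibody (median 2.01) and 0.993 to 2.41 CPM with 3D6 (median 1.498). There, 4 of 8 hearts given 3D6 lay below every control heart. The log2 fold change was -0.60 (standard error 0.28, adjusted p = 0.944 in edgeR), and it was -0.29 without control heart 8, which had the 5.57 CPM.

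*Egr1*, which binds GC-rich sites and is a standard reporter of MAP kinase signalling, lies on chromosome 18 from 34859823 to 34864984. Its lowest, median and highest values were 6.75, 9.76 and 18.02 CPM with ScrAβ42 and 7.65, 10.6 and 36.6 CPM with Aβ42. Heart Abeta42_3457, the highest for *Fos*, was also the highest for *Egr1*, and the other 6 Aβ42 hearts were at or below 14.7 CPM. The log2 fold change of 0.43 (standard error 0.35, adjusted p = 0.865 in edgeR) became -0.03 without that heart and -0.13 when the fit held the atrial score. With 3D6, *Egr1* spanned 10.8 to 37.2 CPM (median 24.5) and with the control antibody 10.7 to 43.1 CPM (median 22.7), with complete overlap and a log2 fold change of -0.09 (standard error 0.26). Estimated counts were split between *Egr1*-202 (69.7%) and *Egr1*-201 (30.3%), with a mean share of *Egr1*-202 of 72.2 ± 12.0% (SD, n = 8) in hearts given 3D6 and 70.0 ± 5.22% (SD, n = 8) in control hearts.

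*Ier2*, a nuclear protein of the same family name and N-terminal region as Ier5, had medians of 11.8 CPM with ScrAβ42 and 14.1 CPM with Aβ42, in ranges of 9.53 to 16.2 CPM and 8.51 to 16.02 CPM. Those groups overlapped apart from 1 Aβ42 heart below every ScrAβ42 heart, with a log2 fold change of 0.08 (standard error 0.15). The antibody study gave ranges of 14.5 to 22.4 CPM with the control antibody (median 17.7) and 8.32 to 18.7 CPM with 3D6 (median 14.4). Here 7 of 8 hearts given 3D6 were below the control median and 4 below every control heart. The log2 fold change was -0.35 (standard error 0.14), with an unadjusted p under 0.05 and an adjusted p of 0.944 in edgeR. With the mitochondrial share as a covariate it was -0.23 (unadjusted p = 0.0697 in edgeR).

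*Ier3*, a regulator of apoptosis that is unrelated in sequence to Ier2 and Ier5, had 4 of 7 Aβ42 hearts below every ScrAβ42 heart. Its values were 26.9, 29.0 and 40.3 CPM with ScrAβ42 (lowest, median and highest) and 20.8, 24.8 and 33.8 CPM with Aβ42. The other 3 Aβ42 hearts lay within the ScrAβ42 range, and the log2 fold change was -0.23 (standard error 0.12, adjusted p = 0.783 in edgeR), or -0.10 without the 5 hearts of high atrial marker score. With 3D6 it was 0.03 (standard error 0.14), in ranges of 12.3 to 25.2 CPM with 3D6 and 13.9 to 23.5 CPM with the control antibody.

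*Btg2*, an antiproliferative gene that recruits the deadenylation machinery and is induced by p53, had nearly equal medians in both comparisons. With ScrAβ42 it ran from 40.5 to 68.9 CPM (median 51.2) and with Aβ42 from 46.8 to 72.2 CPM (median 50.5). The antibody groups ran from 11.3 to 20.1 CPM (median 16.4) with the control and from 10.1 to 18.6 CPM (median 17.3) with 3D6. Log2 fold changes were 0.01 (standard error 0.12) with Aβ42 and 0.06 (standard error 0.13) with 3D6.

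**Figure D2:**
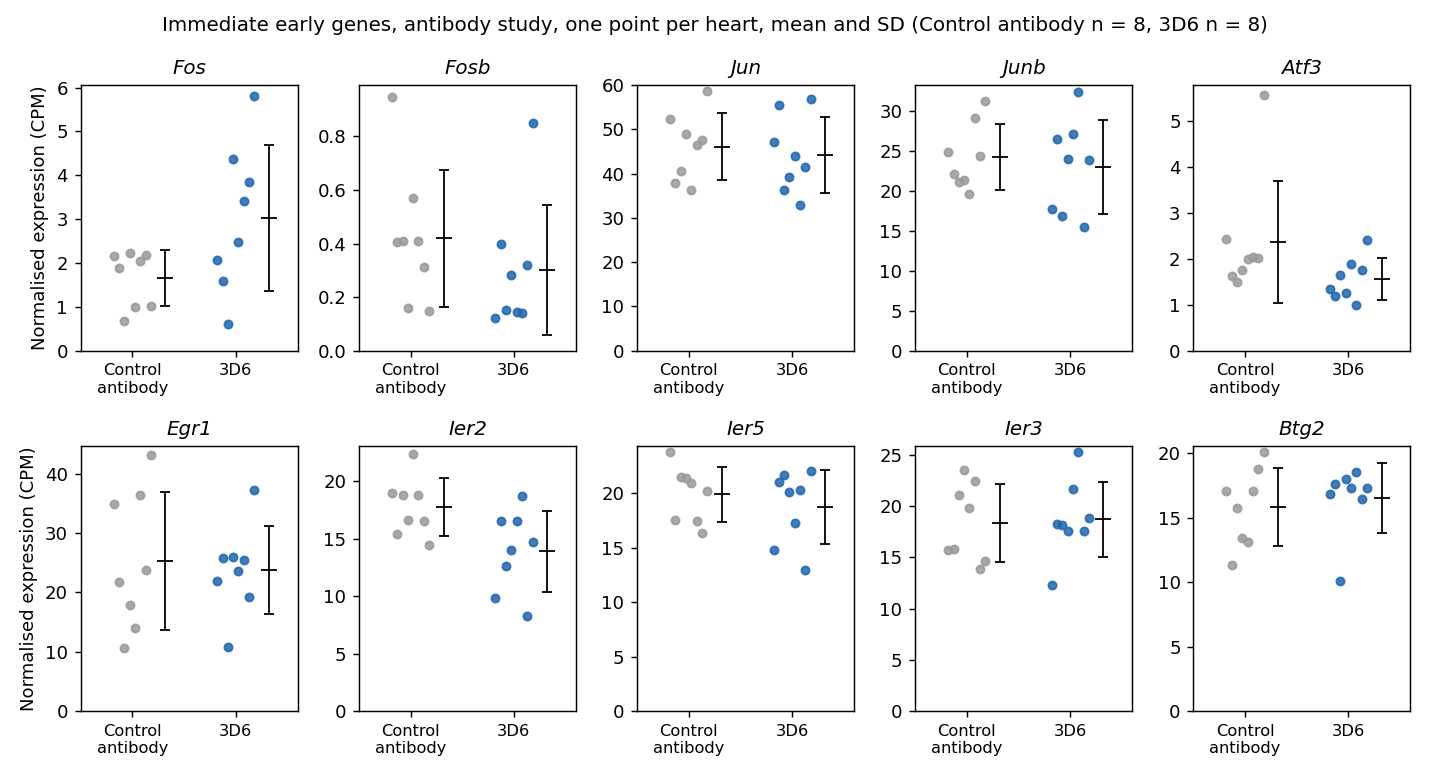
CPM of each immediate early gene in each heart of the antibody study (y axis, from 0), with control antibody hearts in light grey and 3D6 hearts in blue. The mark and bar are the mean and SD of 8 hearts. The groups overlap in every panel, and in the *Fos* panel 5 hearts given 3D6 lie above the highest control heart at 2.24 CPM.

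Across the 9 tested members, 6 had a positive and 3 a negative log2 fold change with Aβ42, with 0 higher and 2 lower at an unadjusted p under 0.05 (3.6% and 2.91% of all genes). With 3D6 the signs were 3 positive and 6 negative, with 1 higher (*Fos*) and 2 lower (*Ier2* and *Atf3*) at that value (1.29% and 2.36% of all genes). The median log2 fold change over the members was 0.08 with Aβ42 and -0.07 with 3D6, against 0.0016 and -0.011 over all genes tested. Since the members were picked with both comparisons known, nothing is read from the counts of either. By edgeR no member passed an adjusted p of 0.05 in either study. By DESeq2, *Jun* and *Ier5* passed in the peptide study, where 0.1% of genes did, and no member passed in the antibody study. Bulk tissue does not separate fewer cells of a type from less RNA per cell in any of these values.

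**Figure D3:**
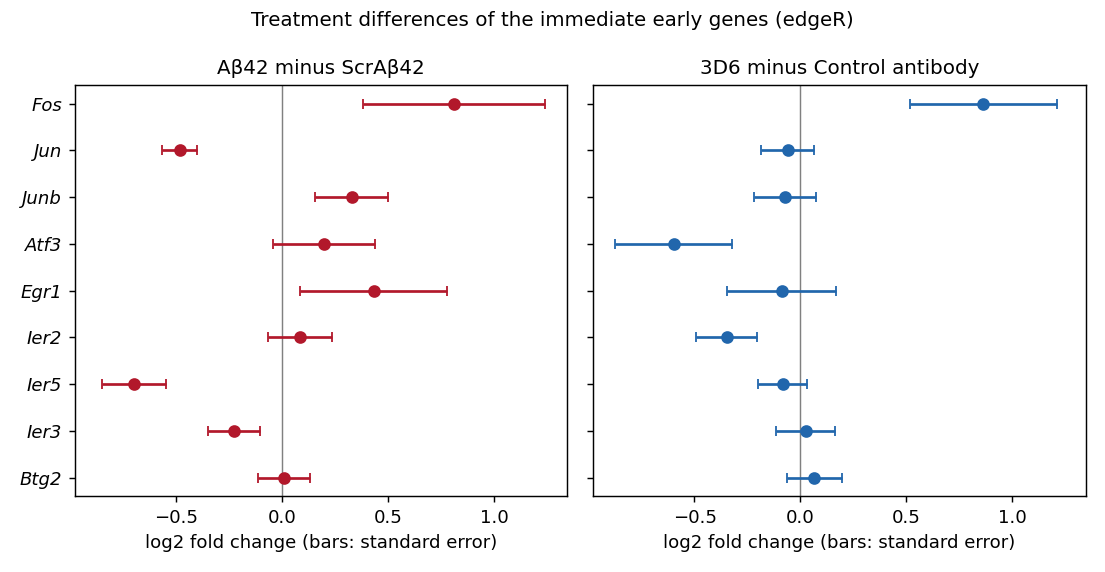
Log2 fold change of the 9 tested members (x axis) with Aβ42 against ScrAβ42 on the left and with 3D6 against the control antibody on the right. Points are edgeR estimates and bars their standard errors. *Jun* (-0.48) and *Ier5* (-0.70) lie left of 0 in the peptide study and near 0 in the antibody study (-0.06 and -0.08), while *Fos* lies right of 0 in both (0.81 and 0.86).

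Per kilobase of exon, the order of the mean levels in the peptide study was *Ier3* (25.3 CPM per kilobase), *Btg2* (19.4), *Jun* (17.1), *Atf3* (13.3), *Ier5* (13.1), *Ier2* (8.39), *Junb* (6.83), *Egr1* (2.77), *Fos* (1.89) and *Fosb* (0.226). For the antibody study *Ier3* was again first (16.4) and *Fosb* last (0.0578), whereas *Atf3* (0.913) came just below *Fos* (0.993). These means were taken over both groups of a study, although *Jun* and *Ier5* were lower with Aβ42, and the order can differ within a group. Levels were not compared between the studies by a test.

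The members differed in how much they varied between hearts of one group. The within-group SD of log2 CPM was 0.78 for *Fos* and 0.65 for *Egr1* in the peptide study, the 96.3 and 94.0 percentiles of all genes tested. *Jun* was among the steadier genes there, with an SD of 0.16 (percentile 22.1), and *Ier5* was intermediate at 0.30 (percentile 67.4). *Jun* led to the list through its difference in that study, and a small SD makes such a difference easier to see. The percentiles also take no account of depth, with mean counts of 287.5 for *Jun* and 25.4 for *Fos*. *Fos* (0.73, percentile 97.4) and *Egr1* (0.61, percentile 95.2) were again the most variable members in the antibody study, where *Jun* had 0.26 (percentile 42.4) and *Ier5* 0.24 (percentile 35.0).

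Co-variation among members was described by Pearson's r and Spearman's rho of log2 CPM after group means were removed, over 36 pairs in each study and without a p, since these are the genes the list was made of. In the peptide study the highest values joined *Fos*, *Junb* and *Egr1*, with r of 0.73 for *Fos* and *Junb* (rho 0.57), 0.73 for *Fos* and *Egr1* (rho 0.60) and 0.71 for *Junb* and *Egr1* (rho 0.55). Without the 2 hearts farthest from the median of the first gene of each pair these were 0.54, 0.47 and 0.27. *Jun* and *Ier5* followed with r of 0.63 (rho 0.58), which was 0.92 within the ScrAβ42 group and 0.45 within the Aβ42 group. Without the 2 hearts farthest from the median the value for *Jun* and *Ier5* was 0.21, so that it rested on those hearts. *Jun* had r of 0.08 with *Fos* (rho 0.34) and 0.01 with *Junb* (rho 0.12). Within the Aβ42 and ScrAβ42 groups these were 0.05 and 0.20 for *Fos*, and 0.30 and -0.55 for *Junb*. *Ier5* ran against *Junb* (-0.53), with -0.505 within the Aβ42 group and -0.59 within the ScrAβ42 group. Its r with *Fos* was -0.48, which was -0.69 within the Aβ42 group and 0.02 within the ScrAβ42 group. The lowest value was that of *Fos* and *Ier3* (-0.57), with -0.74 within the Aβ42 group and -0.10 within the ScrAβ42 group.

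In the antibody study *Jun* and *Ier5* had r of 0.09 (rho 0.11), and *Fos* and *Junb* had 0.27 (rho 0.135, and r of -0.05 without the 2 farthest hearts). *Junb* and *Egr1* (0.69, and 0.80 without the 2 farthest hearts), *Egr1* and *Btg2* (0.68) and *Ier2* and *Ier5* (0.66, and 0.27 without the 2 farthest hearts) gave the highest values, and *Fos* and *Egr1* stayed at 0.60 (0.20 without the 2 farthest hearts). The median over pairs was 0.14 for the peptide and 0.24 for the antibody study. All points of a study share its scaling, and *Fos* and *Atf3* rest on mean counts of 16.4 and 13.8 per heart in the antibody study.

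**Figure D4:**
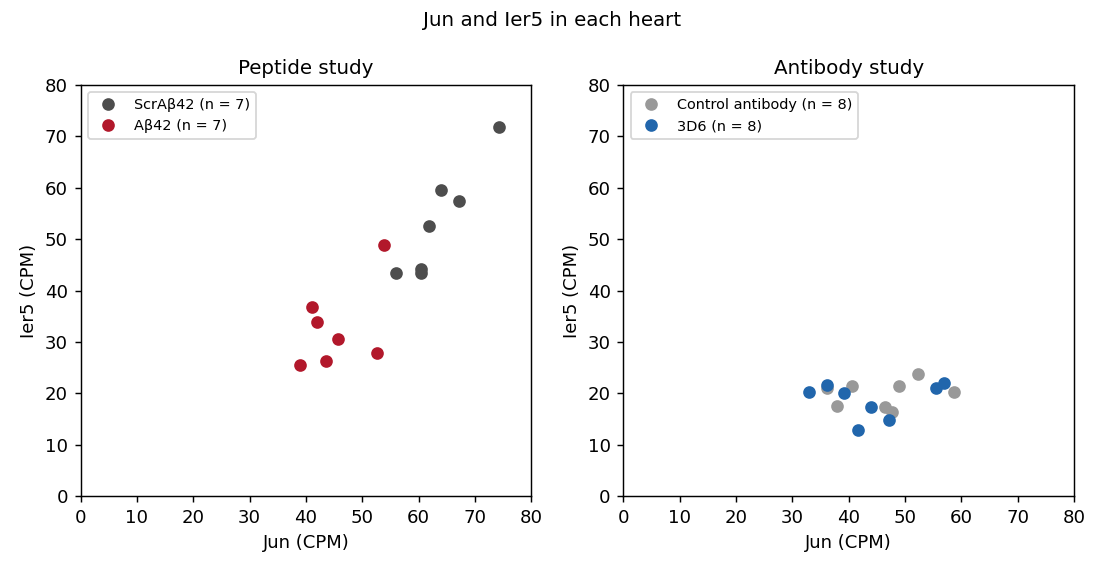
*Ier5* (y axis, CPM) against *Jun* (x axis, CPM) in each heart, with the peptide study on the left and the antibody study on the right. In the peptide study every ScrAβ42 heart lies to the right of every Aβ42 heart, 1 Aβ42 heart overlaps the ScrAβ42 hearts in *Ier5* at 48.9 CPM, and in the antibody study both groups share 1 cloud with *Ier5* between 13.0 and 23.8 CPM.

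**Figure D5:**
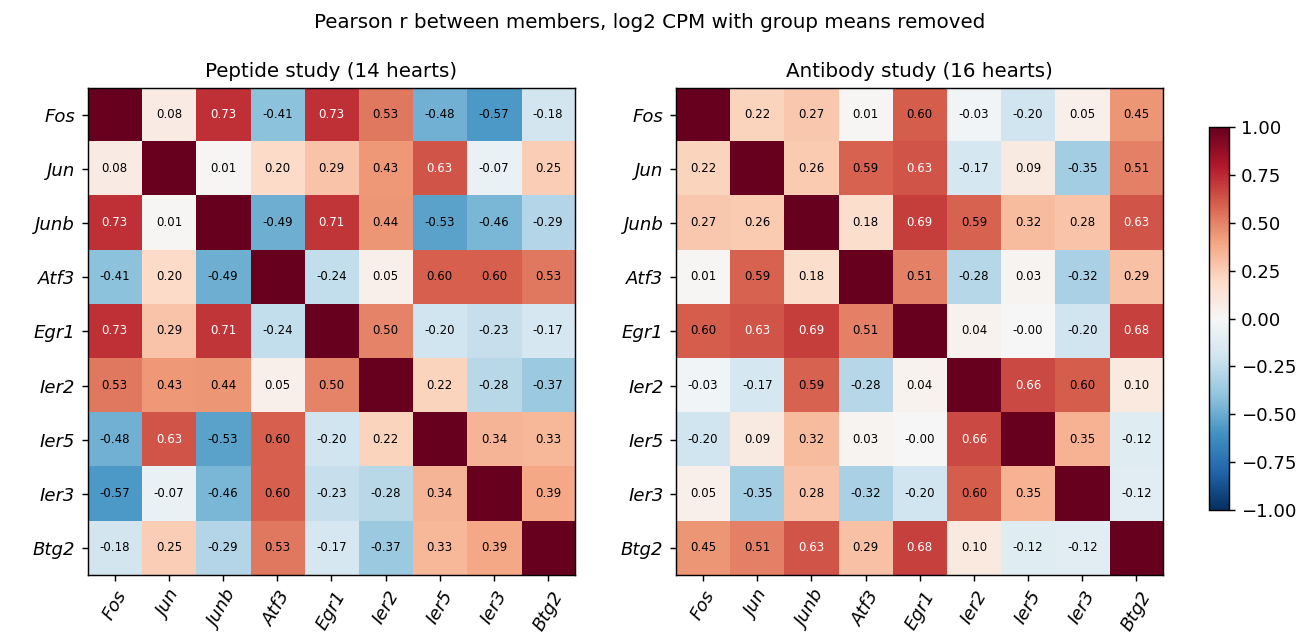
Pearson r between the 9 tested members, from log2 CPM with group means removed, over 14 hearts (left) and 16 hearts (right). Red is positive and blue negative. *Fos*, *Junb* and *Egr1* form a red block in the peptide study (0.71 to 0.73), and the value of *Jun* with *Ier5* is 0.63 on the left and 0.09 on the right.

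*Fos*, *Junb* and *Egr1* also varied with tissue markers from heart to heart in the peptide study. Their r with the atrial marker score (the mean z-score of the 5 genes, group means removed, 14 hearts) was 0.80, 0.74 and 0.63, and with the summed cardiomyocyte markers -0.75, -0.80 and -0.74. The corresponding rho values were 0.66, 0.56 and 0.64 for the atrial score and -0.63, -0.69 and -0.43 for the cardiomyocyte markers. With the fibroblast markers the r values were 0.82, 0.78 and 0.67 (rho 0.72, 0.57 and 0.35), and with the mitochondrial share of counts -0.72, -0.84 and -0.65 (rho -0.35, -0.65 and -0.32). With the platelet markers they were 0.62, 0.59 and 0.74 (rho 0.69, 0.58 and 0.80). *Ier3* ran the other way, with r of -0.72 (rho -0.91) for the fibroblast markers, -0.62 (rho -0.72) for the macrophage markers and 0.68 (rho 0.75) for the cardiomyocyte markers, and *Atf3* had 0.63 (rho 0.60) with the cardiomyocyte markers. For *Jun* the r with the atrial score was 0.04 and with the mitochondrial share 0.19, and for *Ier5* they were -0.55 and 0.50. The log2 fold change of *Jun* was -0.49 with either of these measures as a covariate, and that of *Ier5* was -0.52 with the atrial score and -0.73 with the mitochondrial share. With the platelet markers *Jun* had r of 0.48 (rho 0.49), and with the mesothelial markers *Ier5* had -0.57 (rho -0.63). Over the 16 hearts of the antibody study the r of *Fos*, *Junb* and *Egr1* with the atrial score was 0.46, 0.02 and 0.30, with the cardiomyocyte markers -0.64, -0.30 and -0.81 (rho -0.55, -0.29 and -0.64), with the fibroblast markers 0.12, 0.03 and -0.14 and with the mitochondrial share 0.18, 0.07 and 0.47. With the platelet markers the r of *Fos*, *Junb* and *Egr1* was 0.05, 0.03 and -0.20. *Jun* had r of 0.60 with the mitochondrial share there and -0.72 (rho -0.79) with the platelet markers, the latter opposite in sign to the peptide study. It also had -0.67 with the blood markers and -0.61 with the skeletal muscle markers, which were at 1.57 CPM or less in sum. *Ier2* had -0.64 with the mitochondrial share and 0.76 (rho 0.72) with the macrophage markers. The part of tissue composition in the members' values was not tested beyond these fits.

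The genes most like a member were the 5 with the highest r in the peptide study among 11361 genes tested in both studies, given with their r in the antibody study. For *Jun* they were *Tmem86a* (0.89 and -0.42), *Churc1* (0.89 and -0.77), *Nip7* (0.84 and -0.22), *Zfp513* (0.81 and -0.41) and *D830050J10Rik* (0.81 and -0.58). All 5 had a negative r in the antibody study, as did 50.1% of all genes with *Jun*. For *Ier5*, 4 of them are given, *Srp19* (0.82 and 0.45), *Gfra4* (0.81 and -0.12), *Ints6* (0.81 and -0.43) and *Ube2k* (0.80 and 0.08). For *Fos* they were *Srebf2* (0.95 and 0.35), *Notch2* (0.93 and 0.05), *Fzd7* (0.93 and 0.25), *Tubb5* (0.93 and -0.23) and *Adam33* (0.92 and -0.07).

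Of 60 other immediate early and early response genes, listed by function, 55 were tested in the peptide study. Of these, 6 were higher and 4 lower with Aβ42 at an unadjusted p under 0.05, that is 6 and 4 of 55 where 3.6% and 2.91% of all genes were, and 0 passed an adjusted p of 0.05. The median log2 fold change was 0.05 against 0.0016 over all genes. Feedback regulators contributed 5 of the 6 higher genes, from 13 tested. *Dusp4*, a phosphatase that inactivates MAP kinases, was at 9.51 ± 10.8 CPM (SD, n = 7) with Aβ42 and 2.89 ± 1.10 CPM (SD, n = 7) with ScrAβ42, with Aβ42 hearts between 1.39 and 31.4 CPM. The phosphatase gene *Dusp5* (log2 fold change 0.44) and *Nab2*, a corepressor of Egr proteins (0.65), were the next by p. Adjusted p for the 3 lay between 0.683 and 0.738 in edgeR.

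The lower genes by p were *Trib1*, which codes for a pseudokinase (log2 fold change -0.49, standard error 0.13, adjusted p = 0.641 in edgeR), the transcription factor *Klf4* (-0.27) and *Myc* (-0.51). *Trib1* was at 32.2 ± 3.60 CPM (SD, n = 7) with Aβ42 and 45.2 ± 11.8 CPM (SD, n = 7) with ScrAβ42, and its groups overlapped by a narrow margin, the highest Aβ42 value and the lowest ScrAβ42 value both rounding to 37.5 CPM. Of the 18 upstream regulators (serum response factor and its partners, CREB, MAP kinases and *Hsf1*), 6 had a positive and 12 a negative log2 fold change, and none had an unadjusted p under 0.05.

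Of the same 60 genes, 54 were tested in the antibody study, with 2 higher and 4 lower at an unadjusted p under 0.05 (1.29% and 2.36% of all genes) and 0 at an adjusted p of 0.05. The 2 higher genes were *Pim1*, a kinase (log2 fold change 0.21), and *Dusp5* (0.48), and the lowest p among the lower genes were those of *Jund*, the third Jun family member (-0.20), *Nfil3* (-0.33) and *Plk2* (-0.26). Of the 18 upstream genes, 13 had a positive log2 fold change, and *Elk1*, a serum response factor partner (0.53), and *Rps6ka5*, a kinase that acts on CREB (0.48), had an unadjusted p under 0.05. Adjusted p was 0.944 for each of these genes in edgeR. Of the 52 listed genes tested in both studies, *Dusp5* (higher in each) and *Klf4* (lower in each) had an unadjusted p under 0.05 in the same direction in both, as did 20 of all 11361 genes (0.176%), while 19 of all genes had it in opposite directions. No test was made of that count.

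Whether the other listed genes moved with the members from heart to heart was assessed against the mean z-score of the members. Of 36 member pairs, 21 in the peptide and 26 in the antibody study had r above 0. Members that ran against each other partly cancel in this score, so it can miss genes that followed only some members. The result with a score from fewer members is given at the end. Permutation of hearts within groups (100000 resamples, two-sided) left 0 of 55 genes of the peptide study and 0 of 54 of the antibody study with an adjusted p under 0.05, and 3 and 7 with an unadjusted p under 0.05. The highest r in the peptide study belonged to *Trib1* (0.75, rho 0.50), *Myc* (0.67), *Jund* (0.57), *Btg1* (0.46) and *Plk3* (0.43), and without the 2 farthest hearts *Trib1* was at 0.26 and *Myc* at 0.33. The r of *Plk3* was -0.46 within the Aβ42 group and 0.79 within the ScrAβ42 group. The lowest were those of *Tob1* (-0.51), *Nr4a1* (-0.48) and *Zfp36l1* (-0.41, and -0.08 without the 2 farthest hearts). Those highest in the antibody study belonged to *Arc* (0.62), *Jund* (0.61), *Nr4a1* (0.56), *Mafk* (0.56) and *Maff* (0.54), and the lowest to *Btg1* (-0.31), *Id2* (-0.30) and *Gadd45b* (-0.28, and 0.08 without the 2 farthest hearts). *Jund* was among the highest in both studies, while *Nr4a1*, an orphan nuclear receptor, was among the lowest in the peptide study and the highest in the antibody study, and *Btg1*, an antiproliferative relative of *Btg2*, the reverse. The r was above 0 in both studies for 21 of 52 genes.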

How the data were processed

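RNA of the left ventricle was sequenced from stranded total RNA libraries. Per the submitters' notes and the study's methods, the authors quantified the reads with Salmon on GRCm38 (GENCODE transcripts). They deposited raw counts per Ensembl gene for the peptide study and estimated counts per Ensembl transcript for the antibody study, both not normalized. Transcripts were summed to genes and rounded. The peptide study's file has 1 further column that fits no label, which was left out. Symbols came from GENCODE vM21, which listed 99.48% of genes and 99.21% of transcripts, and 0.38% of the estimated counts fell on unlisted transcripts.

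Each study was fitted separately with edgeR 4.0.16 (R 4.3.3) on genes averaging 10 or more counts over its hearts, using TMM scaling, the two-sided quasi-likelihood test and Benjamini-Hochberg adjustment over all genes tested. Log2 CPM used a prior count of 2. Alternatives were DESeq2 1.42.0, limma-voom (limma 3.58.1), RLE and total-count scaling, other filters, covariates and leaving out each heart. The scripts were tested on simulated data with 200 changed genes. Within-group pairs of hearts differed by more than sampling noise (lowest chi-square over its degrees of freedom 3.47).

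The members and the gene lists were chosen with earlier results of these data known. Genes named were all 10 members, from the lists the 3 higher and 3 lower with the smallest p per study and any with an adjusted p under 0.05, the 5 genes most alike to *Jun*, *Ier5* and *Fos*, and the 5 highest and 3 lowest in co-variation. One of the genes most like *Ier5* is not reported here.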

Additional observations from a re-analysis of the deposited data

Results flagged for a closer look

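Among the 40 groups of values (10 genes in 4 groups of hearts), 9 had 1 heart whose gap to the nearest other heart was large for the range of its group by Dixon's test. Chance gives this in about 5% of groups where values are normally distributed and groups independent. CPM need not be normal, and the genes were measured in the same hearts. The 9 groups are therefore not read as an excess over chance. Several of these fell on the same hearts. With ScrAβ42, heart ScrAbeta42_3448 was highest for *Fos* at 5.84 CPM (others 2.12 to 3.67) and for *Fosb* at 2.00 CPM, and heart ScrAbeta42_3449 was highest for *Atf3* at 45.0 CPM (others 16.4 to 27.5) and for *Ier3* at 40.3 CPM (others 26.9 to 31.8). Heart ScrAbeta42_3449 also had the highest *Jun* and *Ier5* levels of all 14 hearts. With Aβ42, heart Abeta42_3457 had an *Egr1* level of 36.6 CPM (others 7.65 to 14.7) and heart Abeta42_3460 a *Btg2* level of 72.2 CPM (others 46.8 to 56.3).

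In the antibody study, 3D6 heart 7 was highest for *Fosb* at 0.849 CPM, control heart 8 was highest for *Atf3* at 5.57 CPM (others 1.51 to 2.44), and 3D6 heart 17 was lowest for *Btg2* at 10.1 CPM (others 16.5 to 18.6). Control heart 8 also had the highest *Jun* and *Egr1* levels of that study, at 58.7 and 43.1 CPM. *Fosb* rested on 110 counts over 14 hearts in the peptide study and 41 over 16 in the antibody study.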

How the results depend on the processing

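Genes passing an adjusted p of 0.05 numbered 0 in both studies by edgeR and 12 by DESeq2 in the peptide study. Leaving out each heart in turn gave 0 to 3 there, with *Rgs2*, *Abra* and *Jun* without heart Abeta42_3452 and *Pla2g4e* without heart ScrAbeta42_3448, and 0 in the antibody study. Other early genes at an unadjusted p under 0.05 numbered 2 to 8 higher and 1 to 4 lower with Aβ42 over these leave-one-out fits, and 9 higher with the mitochondrial share as a covariate, and 2 to 3 higher and 2 to 7 lower with 3D6 (7 without control heart 15). Without the hearts whose atrial marker score exceeded 0.5, an alternative chosen after seeing the data, 2 were lower with Aβ42, and 0 were higher and 2 lower with 3D6. Total-count scaling left 1 higher with 3D6. All genes at an unadjusted p under 0.05 changed in number between fits too. With Aβ42 they were 431 higher and 349 lower by edgeR, and 327 higher and 361 lower by limma-voom. The counts of other early genes are therefore not read as a result about those genes. Co-varying genes numbered 4 in the peptide study with a score from the tested genes of *Fos*, *Fosb*, *Junb*, *Egr1* and *Atf3* (*Klf10*, *Socs3*, *Nfkbiz* and *Nab2*), and 0 to 1 (*Myc* without heart Abeta42_3457) when leaving out hearts. Why these counts changed was not tested. The log2 fold changes of *Jun* and *Ier5* with Aβ42 kept their sign in every alternative run, and that of *Fos* did not. The groups share no mouse number, and the labels pair no mice. With the 8 pairs of consecutive numbers of the antibody study as a replicate block, chosen after seeing the data, 0 genes passed an adjusted p of 0.05, 2 other early genes were higher and 3 lower at an unadjusted p under 0.05, and *Fos* (0.78), *Atf3* (-0.55) and *Ier2* (-0.37) kept an unadjusted p under 0.05. Over all genes that p was met by 461 higher and 477 lower, against 157 and 287 without the block. Deviations from the group means correlated above 0.1 in 6 of the 8 pairs (-0.24 to 0.40), and 2 hearts given 3D6 correlated best with the control heart of their own pair. No paired analysis was possible because of unshared numbers in the peptide study. Depth limits *Fosb*, *Fos* and *Atf3* (antibody study) most.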
